A study of Homo sapiens with 12 samples.

Results

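The FOXA2 binding sites of the human colorectal adenocarcinoma lines SW620 and SW480 were compared by position. All peaks of both FOXA2 lists were taken, 12372 in SW620 and 5207 in SW480, together 17579 of the 262931 regions in the 10 lists of the series. Each FOXA2 list came from 1 library, prepared with the same antibody from untreated cells grown in DMEM with serum. SW480 is labelled as a Dukes' type B and SW620 as a Dukes' type C tumour line. The other lists used here were H3K4me3, H3K27ac and H3K4me2 regions, again 1 library per line. Without replicates no test between the lines was possible. Intervals are 95% Wilson intervals for shares and order-statistic intervals for medians, and they cover counting error only. Peaks of 1 list are not replicates of a line, and neighbouring peaks are not independent.

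FOXA2 is a forkhead transcription factor of the foregut endoderm, where it acts in the development of the liver, pancreas and lung. It is known as a pioneer factor, a protein that can bind its DNA motif on nucleosomes in closed chromatin before other factors arrive. In liver cells many of its sites lie in distal enhancers, which carry H3K4me2 and, when active, H3K27ac, whereas H3K4me3 marks promoters. H3K4me2 without H3K27ac is often described as a primed state. Binding by FOXA factors at clustered sites is a familiar feature of liver enhancers.

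The libraries had similar depth and different yields. The SW480 library held 19473583 tags (mapped reads kept by the caller) and the SW620 library 18036456, so SW620 had 0.926 times the tags and 2.38 times the peaks. The share of tags inside peaks was 0.590% in SW480 and 2.25% in SW620. The fragment length estimated by the caller was 108 bp in SW480 and 164 bp in SW620. It set the peak size to 126 and 318 bp and the smallest spacing between peaks to 252 and 636 bp. Peak centres were used for all distances because of these different sizes. The identity of the bound factor was not checked here by motif, since no sequence of the genome build was used.

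The question was first how far the FOXA2 sites of one line lay from those of the other. The lists met at few positions, and where they met the centres nearly coincided. Of the SW620 peaks, 253 (2.04%, 1.81 to 2.31) had an SW480 centre within 500 bp. Of the SW480 peaks, 261 (5.01%, 4.45 to 5.64) had an SW620 centre within 500 bp. Among the 253 SW620 peaks, 225 (88.9%) lay within 100 bp of the SW480 centre, with a median offset of 24 bp. From there to 250 bp only 13 further SW620 peaks were added. The typical SW620 peak was 178 kb (174 to 184) from the nearest SW480 peak. The typical SW480 peak was 103 kb (97.4 to 110) from the nearest SW620 peak. These medians depend on list length. When SW620 was limited to its 5207 first-listed peaks, the median from the SW480 peaks was 260 kb. The shares within 500 bp were then 3.48% of SW620 and 3.57% of SW480 peaks. The first-listed peaks are not a random part of the list. The SW620 share was measured against the unchanged SW480 list, so its rise from 2.04% reflects which peaks were kept, not list length.

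The density of SW480 peaks around SW620 peaks showed the same coincidence and little beyond it. Within 100 bp the density was 90.9 SW480 peaks per Mb, which was 48.4 times that between 500 and 1000 kb. Between 100 and 250 bp it was 3.50 peaks per Mb, or 1.87 times the distant level. Between 2 and 5 kb it was 1.24 times and between 200 and 500 kb 0.992 times that level. Beyond 1 kb the SW480 density around an SW620 site was thus at most 1.26 times the distant level.

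**Figure D1:**
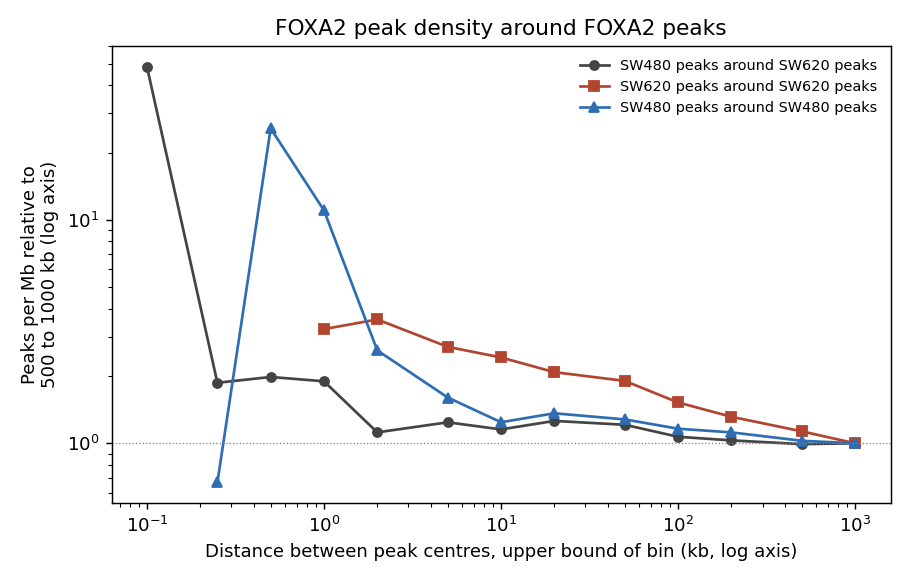
Density of FOXA2 peaks (vertical log axis, relative to the density 500 to 1000 kb away) against distance between centres (horizontal log axis in kb, upper bound of each bin; empty bins are not drawn). SW480 peaks around SW620 peaks are at 48.4 times the distant level within 100 bp and at 1.12 to 1.26 times between 1 and 50 kb, SW620 peaks around SW620 peaks decline slowly from 3.58 times between 1 and 2 kb, and SW480 peaks around SW480 peaks are at 25.6 times between 250 and 500 bp.

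The 5 closest pairs show what such a position can look like. On chromosome 17 the SW620 peak from 17349557 to 17349875 and the SW480 peak from 17349653 to 17349779 had the same centre. This site lay inside H3K4me2 of both lines and inside H3K27ac of SW620, while H3K27ac of SW480 was 29.4 kb away. On chromosome 20 the peaks at 8137171 to 8137489 and 8137267 to 8137393 also had the same centre, inside SW480 H3K4me2 and 0.409 kb from SW620 H3K4me2. On chromosome 14 the common centre of 84864388 to 84864706 and 84864484 to 84864610 lay 759 kb from the nearest H3K4me2 region of SW620 and 1189 kb from that of SW480. On chromosome 8 the common centre of 53379587 to 53379905 and 53379683 to 53379809 lay inside all 3 marks in both lines. On chromosome 9 the peaks at 124952869 to 124953187 and 124952964 to 124953090 were 1 bp apart, inside H3K27ac and H3K4me2 of both lines. The 5 positions thus ranged from a site inside all 3 marks to one far from any of them.

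Coincident positions were also set against the rest of each list on the 22 autosomes and X. A mark here means a region of H3K4me3, H3K27ac or H3K4me2 of the same line within 1 kb of the peak centre. Of the 252 SW620 peaks near an SW480 peak, 42.1% (36.1 to 48.2) had a mark, against 57.6% (56.7 to 58.4) of the other SW620 peaks. Of the 260 SW480 peaks near an SW620 peak, 42.3% (36.5 to 48.4) had a mark, against 7.90% (7.18 to 8.69) of the other SW480 peaks. The coincident positions were therefore marked less often than the rest of SW620 and more often than the rest of SW480. They also lay more often within 5 Mb of an end of the stretch covered by the lists, with 17.5% (13.3 to 22.6) against 9.44% (8.94 to 9.98) in SW620 and 18.8% (14.6 to 24.0) against 11.0% (10.1 to 11.9) in SW480.

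Position in the list separated the peaks further. Within chromosomes list order followed the number in each peak's name, with Spearman's rho of at least 0.989, but no source used here says what orders a list. In the first 10% of the SW620 list 106 of 1238 peaks (8.56%) were within 500 bp of an SW480 peak, and in the last 10% 15 of 1237 (1.21%). In the first 10% of the SW480 list 69 of 521 (13.2%) were within 500 bp of an SW620 peak, and in the last 10% 30 of 520 (5.77%). Each 10% of SW480 between these held from 3.07% to 5.18%, so the share did not fall steadily. In SW620 the share was 2.91% in the second 10% and between 0.485% and 1.70% in each later 10%, again without a steady fall. The share of SW620 peaks with a mark was 69.1% in the first 10% and 39.5% in the last. H3K27ac alone went from 46.5% to 25.3% and H3K4me2 from 65.8% to 37.3%, while H3K4me3 was 11.6% in the first and 13.6% in the last 10%. H3K4me3 was highest in the sixth 10%, at 18.1%. In SW480 a mark was found at 15.5% of the first 10%, between 6.33% and 11.2% of each later 10%, and 11.2% of the last.

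**Figure D2:**
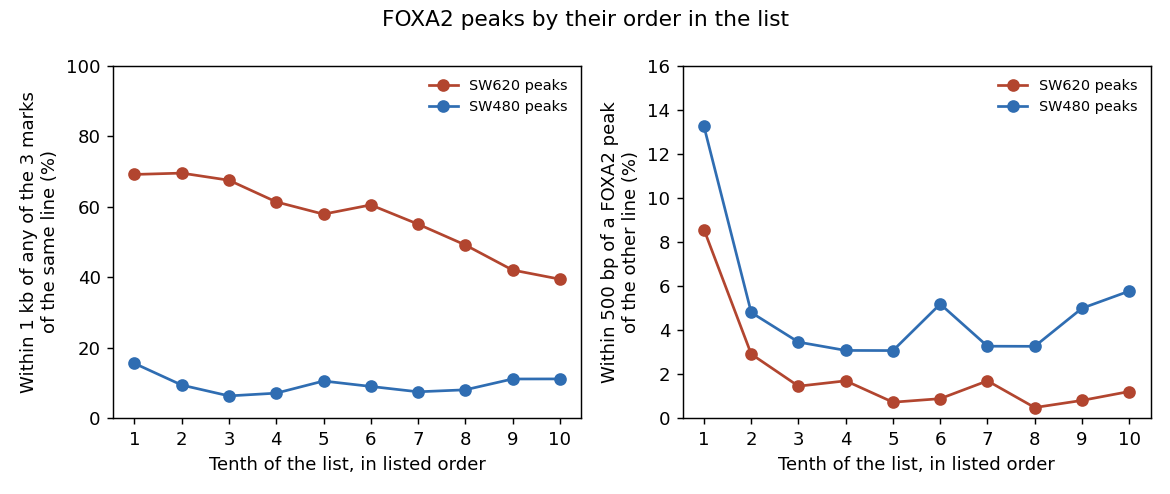
Share of FOXA2 peaks within 1 kb of any of the 3 marks of the same line (left, percent) and within 500 bp of a FOXA2 peak of the other line (right, percent), for each 10% of the SW620 and SW480 lists in listed order. On the left SW620 goes from 69.1% to 39.5% and SW480 never passes 15.5%, and on the right the first 10% is the highest in both lists (8.56% and 13.2%).

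The spacing of peaks within each line was examined next. SW620 peaks were gathered in groups over a wide range of distances, whereas SW480 peaks were spread more evenly apart from tight groups under 1 kb. The median gap between successive peaks was 86.6 kb (83.3 to 90.7) in SW620 and 351 kb (335 to 367) in SW480. A longer list has shorter gaps, so the median was also divided by the mean gap. This ratio was 0.363 in SW620 and 0.610 in SW480, where a lower value means more uneven spacing. With the 5207 first-listed SW620 peaks the median gap was 199 kb. Gaps of at most the cluster limit defined below (midway between 12 and 13 kb) made up 15.1% (14.5 to 15.8) of SW620 and 4.73% (4.18 to 5.34) of SW480 gaps.

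At the shortest distances the counts depended on the smallest spacing that the caller allowed, 252 bp in SW480 and 636 bp in SW620. Gaps of at most 0.7 kb numbered 98 (1.89%, 1.55 to 2.30) in SW480 and 14 (0.113%, 0.0676 to 0.190) in SW620. The shortest gap was 246 bp in SW480 and 645 bp in SW620, close to the smallest spacing that the caller allowed in each library, so gaps under 636 bp could be listed in SW480 alone. The counts up to 0.7 kb therefore cannot compare the lines. Gaps of at most 1 kb numbered 109 (2.10%, 1.75 to 2.53) in SW480 and 119 (0.964%, 0.806 to 1.15) in SW620. Most of those in SW620 were longer than 0.7 kb. The SW480 count still includes gaps under 636 bp, which could not be listed in SW620. The density of SW480 peaks 250 to 500 bp from another SW480 peak was 49.2 per Mb, 25.6 times the density 500 to 1000 kb away. Between 1 and 2 kb it was 2.60 times and between 5 and 10 kb 1.24 times that level. Around SW620 peaks the SW620 density was 3.58 times the distant level between 1 and 2 kb, 2.42 times between 5 and 10 kb and 1.90 times between 20 and 50 kb.

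Clusters were defined as runs of at least 3 peaks whose successive centres lie no farther apart than this limit. SW620 had 282 clusters with 996 peaks (8.05%, 7.58 to 8.54), and SW480 had 29 clusters with 96 peaks (1.84%, 1.51 to 2.25). Of the SW620 clusters 209 held 3 peaks and 13 held 6 or more. In SW480 21 clusters held 3 peaks and the largest held 5. The contrast depended on the limit, with 2.36% of SW620 and 1.23% of SW480 peaks clustered at 5 kb and 18.2% and 3.46% at 25 kb. With the 5207 first-listed SW620 peaks 5.17% were clustered. When peaks closer than 1 kb were joined, 7.21% of SW620 and 0.353% of SW480 peaks were clustered, so the SW480 clusters were in large part groups of closely spaced peaks.

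The largest SW620 clusters lay beside the widest empty stretch of their chromosome, the longest interval with no region in any of the 10 lists. On each of the 23 chromosomes this stretch was longer than 3 Mb. Centromeres and the short arms of acrocentric chromosomes are among the parts of hg19 without placed sequence, but no annotation of the build was used to name these stretches. The 5 largest SW620 clusters held 14 peaks on chromosome 21 (10139315 to 10184223), 14 on chromosome 4 (49094841 to 49141732), 13 on chromosome 16 (46386768 to 46434396), 11 on chromosome 4 (49292378 to 49324975) and 11 on chromosome 16 (33974364 to 34016143). They lay between 0.0240 and 1.28 Mb from the empty stretch. None of their 63 peaks was within 1 kb of H3K4me3, H3K27ac or H3K4me2 of SW620. These peaks lie in only 5 clusters and are not independent, so no upper limit is given for the share. SW480 had 3 peaks in the same intervals. The cluster on chromosome 16 from 46386768 held the first-listed peak of the whole SW620 list, and the median list position of its 13 peaks was 23.

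Away from these stretches clustered SW620 peaks were marked more often than the SW620 list as a whole. On the autosomes and X, 26.2% (23.5 to 29.0) of clustered SW620 peaks were within 5 Mb of the widest empty stretch, against 7.22% (6.75 to 7.71) of the SW620 peaks outside clusters. Of the 12 clusters with 6 or more peaks there, 11 were within this distance. Of the 731 clustered peaks farther away, 77.0% (73.8 to 79.9) had a mark of SW620, against 59.6% (58.6 to 60.5) of all SW620 peaks farther away. H3K27ac was near 62.2% of these clustered peaks and H3K4me2 near 73.1%. Within 5 Mb of the empty stretch 33.1% (30.3 to 35.9) of SW620 peaks had a mark, and of the 259 clustered ones 26 (10.04%, 6.94 to 14.3). Clustered SW620 peaks were thus marked less often beside the empty stretches than away from them, with exceptions on both sides.

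The SW480 clusters were smaller, and many lay toward the ends of the covered stretch. The largest held 5 peaks over 8.24 kb on chromosome 19 (50995052 to 51003291), all within 1 kb of SW480 H3K4me2 and 3 of them within 1 kb of SW480 H3K27ac. SW620 had no FOXA2 peak in this interval, although H3K4me2 of SW620 was within 1 kb of all 5 positions. There were 7 clusters of 4 peaks, spanning 1.07 to 17.5 kb. The 4 with the shortest spans lay on chromosome 19 (3310120 to 3311191), chromosome 2 (1216979 to 1218337), chromosome 1 (1530486 to 1532165) and chromosome 17 (63479879 to 63484790). Of these 4 the cluster on chromosome 17 had H3K27ac of SW480 near, at 3 of its 4 peaks, and the other three had none. Clustered SW480 peaks were within 5 Mb of an end of the covered stretch in 41.7% (32.3 to 51.7) of cases, against 11.4% (10.5 to 12.3) of all SW480 peaks. For SW620 the shares were 8.18% (6.63 to 10.1) and 9.61% (9.10 to 10.1). By their midpoints 12 of the 29 SW480 clusters lay this near an end, and the intervals count peaks of the same cluster as separate. Clustered SW480 peaks also lay within 5 Mb of the widest empty stretch in 13.5% (8.09 to 21.8) of cases, against 5.98% (5.36 to 6.66) of SW480 peaks outside clusters. Those 13 clustered peaks formed only 4 clusters, on chromosomes 19 and 21, and the interval counts them as separate.

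Marks and spacing were also related without the cluster rule. SW620 peaks whose nearest SW620 peak was within 1 kb had a mark in 72.8% (66.8 to 78.2) of cases. The share was 63.4% (61.7 to 65.1) from 1 kb to the cluster limit, 56.3% (55.0 to 57.6) from there to 100 kb and 52.1% (50.4 to 53.8) beyond 100 kb. H3K27ac was near 50.9% of the closest and 28.1% of the most isolated class, and H3K4me2 near 71.1% and 49.95%. H3K4me3 was near 15.9% (11.8 to 21.2) of the closest class, 14.2% and 14.4% of the next classes and 17.6% (16.3 to 18.9) of the most isolated. The enhancer marks were thus less frequent at isolated SW620 peaks, and H3K4me3 was not. Of the closest class 19.0% lay within 5 Mb of the widest empty stretch, and of the most isolated 6.50%. For SW480 the shares with a mark were 12.9% (8.98 to 18.3), 10.5% (7.29 to 15.0), 10.5% (9.04 to 12.2) and 8.98% (8.05 to 10.0), with overlapping intervals.

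**Figure D3:**
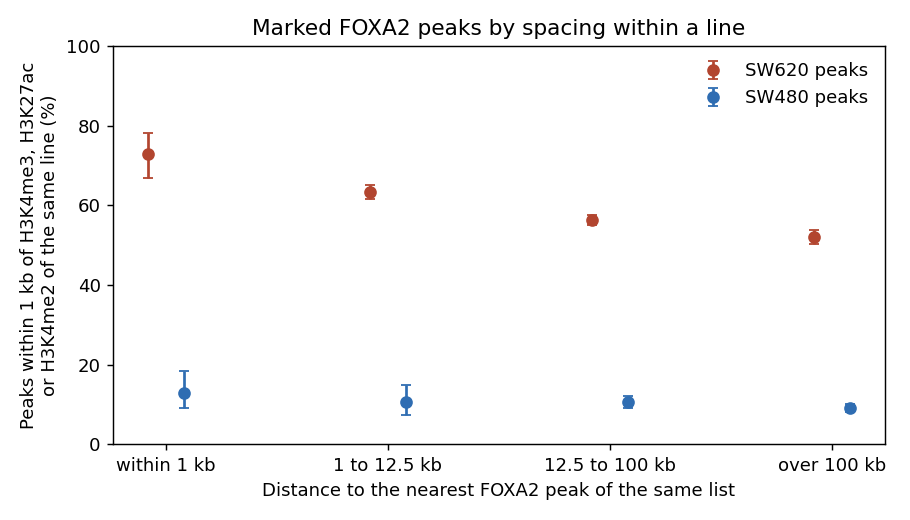
Share of FOXA2 peaks within 1 kb of H3K4me3, H3K27ac or H3K4me2 of the same line (vertical axis, percent) by distance to the nearest peak of the same list (4 classes), with 95% Wilson intervals as bars. SW620 shares step down from 72.8% to 52.1% with isolation, and SW480 shares lie between 8.98% and 12.9% with overlapping intervals.

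The density of peaks along the chromosomes was then compared. SW620 peaks were unevenly shared among chromosomes and SW480 peaks more evenly. Excluding the widest empty stretch, the SW620 density ran from 1.66 peaks per Mb on chromosome 18 to 7.91 on chromosome 20, with a median of 4.36. The SW480 density ran from 1.45 on chromosome 6 to 3.18 on chromosome 19, with a median of 1.81. Across the 23 chromosomes Spearman's rho between the densities was 0.552 and Pearson's r 0.423, as a description of chromosomes of unequal length and gene content.

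The share of each chromosome in the SW620 list was divided by its share in the SW480 list. The ratio was highest on chromosome 10, at 1.60 (1.39 to 1.83), with 947 SW620 and 249 SW480 peaks. It was 1.52 (1.27 to 1.83) on chromosome 17, with 530 and 146 peaks, and 1.32 (1.10 to 1.58) on chromosome 16, with 491 and 156. The lowest ratio was 0.441 (0.343 to 0.567) on chromosome 18, where SW620 had 124 peaks and SW480 118. It was 0.462 (0.394 to 0.542) on chromosome X, with 315 and 286 peaks, and 0.575 (0.474 to 0.697) on chromosome 19, with 244 and 178. The interval lay above 1 on 7 chromosomes, below 1 on 7 and held 1 on 9. The same ratio for H3K4me2 regions ran only from 0.896 to 1.16, and its Spearman's rho with the FOXA2 ratio was -0.03 over the 23 chromosomes. The number of copies of each chromosome in either line was not measured here, and its part in these ratios was not tested.

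**Figure D4:**
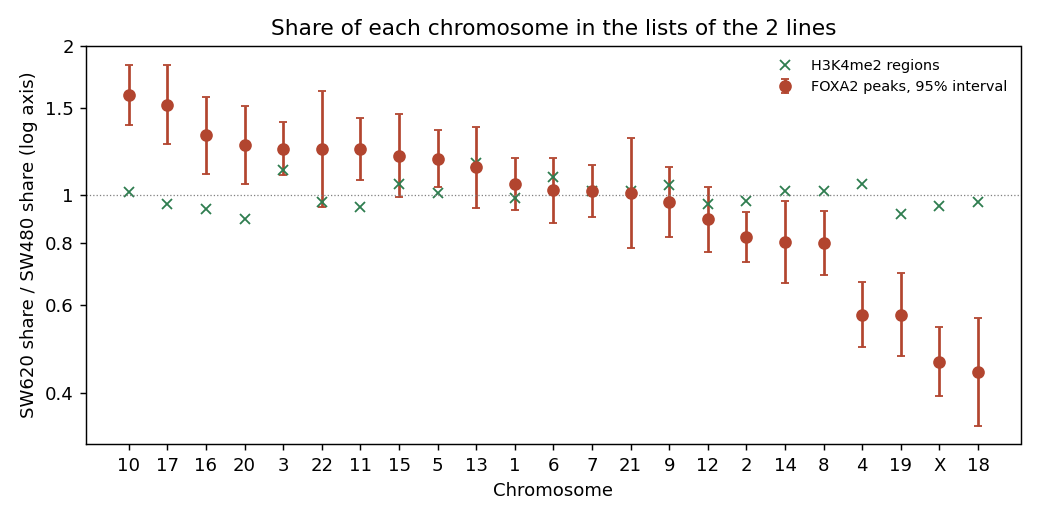
Share of each chromosome in the SW620 list divided by its share in the SW480 list (vertical log axis) for FOXA2 peaks (circles, 95% intervals) and H3K4me2 regions (crosses), chromosomes ordered by the FOXA2 ratio. FOXA2 ratios extend from 1.60 on chromosome 10 to 0.441 on chromosome 18, and the H3K4me2 ratios stay between 0.896 and 1.16.

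Windows of 1 Mb gave a finer view. Of 2890 windows outside the widest empty stretches, 1976 held peaks of both lines, 466 of SW620 alone, 351 of SW480 alone and 97 of neither. At least 10 peaks were found in 322 windows in SW620 and 5 in SW480, and 40 of the 322 held no SW480 peak. That is a smaller share than over all 2890 windows, where the 466 with SW620 alone and the 97 with neither lacked an SW480 peak. Spearman's rho between the counts of the lines was 0.0976, lower than over whole chromosomes. Counts per window were small, with a median SW480 density of 1.81 peaks per Mb by chromosome. Counting error lowers a rho between small counts, so the 2 coefficients cannot be compared directly.

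The 5 windows with the largest SW620 excess, after scaling the SW480 counts by 2.38, differed in their marks. Of their 134 SW620 peaks 60 were marked, beside 57.2% of the whole SW620 list. The window from 49 to 50 Mb of chromosome 4 held 38 SW620 and 3 SW480 peaks, none of which had a mark of its own line, and lay beside the widest empty stretch. The window from 70 to 71 Mb of chromosome 16 held 24 SW620 peaks, 11 of them marked, and no SW480 peak. The window from 0 to 1 Mb of chromosome 5 held 28 SW620 peaks, 18 of them marked, and 2 SW480 peaks. The windows from 77 to 78 Mb of chromosome 10 and from 68 to 69 Mb of chromosome 16 each held 22 SW620 peaks and no SW480 peak, with 16 and 15 marked. The window on chromosome 4 held 1 H3K4me2 region in SW620 and 0 in SW480. The other windows held marked regions in both lines, such as 28 SW620 and 24 SW480 H3K4me2 regions on chromosome 10.

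In the 5 windows with the largest SW480 excess 5 of 49 SW480 peaks were marked, beside 9.58% of the whole SW480 list. Of the SW620 peaks there 13 of 15 were marked, beside 57.2% of the whole SW620 list. The window from 14 to 15 Mb of chromosome 19 held 12 SW480 peaks, 1 of them marked, and 4 SW620 peaks, all 4 marked. It was rich in marked regions, with 41 H3K4me2 regions in SW480 and 43 in SW620. The window from 5 to 6 Mb of chromosome 1 held 11 SW480 peaks, none marked, and 5 SW620 peaks, 3 of them marked. The window from 1 to 2 Mb of chromosome 19 held 10 SW480 peaks, 3 of them marked, and 5 SW620 peaks, all 5 marked. The windows from 29 to 30 Mb of chromosome 19 and from 86 to 87 Mb of chromosome 16 held 8 SW480 peaks each, against 0 and 1 in SW620. All 8 on chromosome 19 lay within 5 Mb of the widest empty stretch, like the SW620 peaks of the window on chromosome 4, and 6 of the 8 were clustered.

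Finally the peaks were placed relative to the marked regions of both lines. More SW620 peaks lay within 1 kb of H3K4me2 and H3K27ac of SW620 than of SW480, while most SW480 peaks lay far from the marks of either line. The histone libraries differed in the share of tags inside regions. For SW480 and SW620 it was 58.5% and 27.5% for H3K27ac and 45.8% and 50.7% for H3K4me2. For H3K4me3 it was 73.0% and 52.0%. The part of these differences in the shares below was not tested. Within 1 kb of an H3K4me2 region of SW620 there were 6724 SW620 peaks (54.3%, 53.5 to 55.2), and 4069 (32.9%, 32.1 to 33.7) were within 1 kb of one of SW480. For H3K27ac the counts were 4472 (36.1%, 35.3 to 37.0) with SW620 and 3283 (26.5%, 25.8 to 27.3) with SW480 regions. For H3K4me3 they were 1879 (15.2%, 14.6 to 15.8) with SW620 and 1830 (14.8%, 14.2 to 15.4) with SW480 regions. The median distance from an SW620 peak to an H3K4me2 region was 0.034 kb in SW620 and 11.2 kb in SW480. For H3K27ac the medians were 14.1 and 21.6 kb, and for H3K4me3 40.2 and 36.4 kb.

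SW480 peaks had H3K4me2 of either line near about equally often. With the full lists they had H3K27ac of SW480 near more often than that of SW620. Within 1 kb of an H3K4me2 region of SW480 there were 427 SW480 peaks (8.20%, 7.49 to 8.98), and 434 (8.33%, 7.61 to 9.12) were within 1 kb of one of SW620. For H3K27ac the counts were 320 (6.15%, 5.52 to 6.83) with SW480 and 238 (4.57%, 4.04 to 5.17) with SW620 regions. The SW480 list of H3K27ac regions is the longer one. With equal numbers of the widest regions the shares were 5.55% (4.96 to 6.21) and 4.57% (4.04 to 5.17), with overlapping intervals. For H3K4me3 they were 177 (3.40%, 2.94 to 3.93) with SW480 and 146 (2.80%, 2.39 to 3.29) with SW620 regions. The median distance to H3K4me2 was 43.6 kb in SW480 and 44.0 kb in SW620, and to H3K27ac 75.7 and 94.2 kb. None of the 3 marks of either line was within 1 kb of 4570 SW480 peaks (87.8%, 86.8 to 88.6) and 4923 SW620 peaks (39.8%, 38.9 to 40.7).

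The coverage of the marks by distance gave each list its own surroundings as a reference. H3K4me2 of SW620 covered 49.4% of SW620 peak centres, 27.1% of positions 1 kb away, 12.1% at 2 kb and 4.94% at 100 kb. H3K27ac of SW620 covered 32.4% of the centres and 3.54% of positions at 100 kb, and H3K4me3 of SW620 11.8% and 2.04%. The marks of SW480 were also concentrated at SW620 peak centres, with 28.9% for H3K4me2 and 23.1% for H3K27ac, against 4.30% and 3.86% at 100 kb. Around SW480 peaks the marks rose less. H3K4me2 of SW480 covered 5.40% of SW480 peak centres and 2.94% of positions at 100 kb, and H3K27ac of SW480 4.40% and 2.42%. The marked surroundings at 100 kb were thus also denser for SW620 peaks than for SW480 peaks in all 6 comparisons of a mark in a line.

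**Figure D5:**
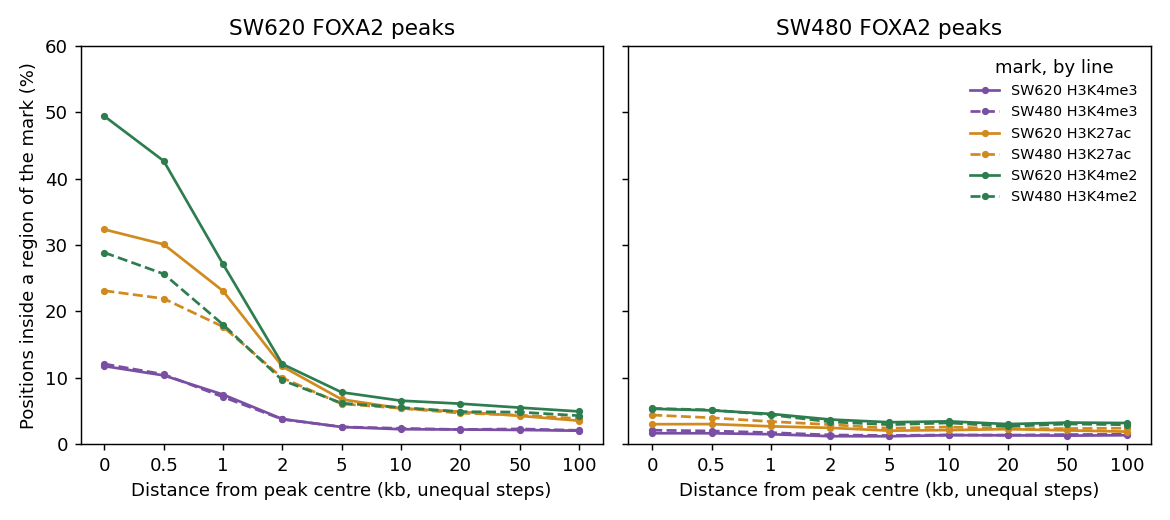
Percent of positions inside a region of each mark (colours) of SW620 (solid) or SW480 (dashed), at increasing distance from FOXA2 peak centres (kb, unequal steps), for SW620 peaks (left) and SW480 peaks (right). SW620 H3K4me2 reaches 49.4% at SW620 peak centres and is at 4.94% at 100 kb, and no curve passes 5.40% at SW480 peak centres.

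Within marked regions the SW620 peaks lay near the middle. Among the 4003 SW620 peaks inside H3K27ac of SW620, 72.5% (71.1 to 73.8) were in the inner 50% of the region. For H3K4me2 the inner share was 68.2% (67.0 to 69.3) of 6114 peaks and for H3K4me3 62.4% (59.8 to 64.8) of 1456. The 229 SW480 peaks inside H3K27ac of SW480 were in the inner 50% in 57.6% (51.2 to 63.9) of cases. Whether the lines differ in this was not tested, with 1 library each. Per the file headers the histone regions were called with the option that centres them on nucleosome-free stretches, and its part in these shares was not tested. The SW620 H3K27ac regions with SW620 peaks inside had a median width of 2837 bp against 2263 bp for the whole list. For SW480 peaks in SW480 H3K27ac the widths were 2825 and 2383 bp. For SW620 peaks in SW620 H3K4me2 they were 2072 and 2049 bp. A wider region has more positions where a peak can lie, and the part of width was not tested.

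The line with the nearer region was counted for each peak. H3K4me2 of SW620 was nearer for 6414 SW620 peaks and H3K4me2 of SW480 for 2831, so SW620 was nearer in 69.4% (68.4 to 70.3) of unequal cases. For H3K27ac SW620 was nearer for 5198 and SW480 for 4945 (51.2%, 50.3 to 52.2), and for H3K4me3 the counts were 4876 and 6355 (43.4%, 42.5 to 44.3). SW480 had the longer list of H3K4me3 and of H3K27ac regions, 18296 against 16315 and 23493 against 22236. With equal numbers of the widest regions the shares were 63.6%, 53.2% and 49.7%. For SW480 peaks SW620 was nearer in 52.0% (50.6 to 53.4) of cases for H3K4me2, and in 46.1% with equal numbers of regions, so no direction held. For H3K27ac and H3K4me3 it was nearer in 39.0% (37.6 to 40.3) and 37.3% of cases.

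For SW620 peaks H3K4me2 was often near in only 1 of the lines. A region within 1 kb was found for 3701 SW620 peaks in both lines, for 3023 only in SW620 and for 368 only in SW480. Where only SW620 had it, the nearest SW480 H3K4me2 region was at a median of 24.2 kb. How many of these 3023 peaks had one just beyond the limit was not counted. Over all SW620 peaks the share near SW480 H3K4me2 was 32.9% within 1 kb and 40.9% within 5 kb. For H3K27ac the same counts were 2616, 1856 and 667. For H3K4me3 they were 1506, 373 and 324. Around SW480 peaks the H3K4me2 counts, in the same order, were 299, 135 and 128, and the H3K27ac counts 167, 71 and 153.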

How the data were processed

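ChIP-seq of FOXA2 and of histone marks was available as lists of called regions. Per the file headers, the authors called each list with HOMER findPeaks against the input library of the same line, without pooling. FOXA2 was called in the factor style with minimum 2-fold over input and over the local 10000 bp, a false discovery rate of 0.001 and centred peaks, and histone marks in the histone style with minimum 4-fold. The build is hg19 per the submitters' processing notes. No source used here names the aligner or the HOMER version. The deposited score column is 1 in every row and was not used. The values used were deposited start and end positions. Coordinates count from 1.

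Python 3.11.15 was used, with pandas 2.3.3 and numpy 2.4.6 for distances, scipy 1.17.1 for intervals and matplotlib 3.10.9 for plots. Distance to a region was measured from the peak centre to the nearest edge, 0 inside. The functions were tested on 2000 simulated peaks and gave the right answer for 100% of them. Chromosome and window counts cover the 22 autosomes and X; 43 peaks lay elsewhere. Named were the 5 clusters with most peaks per line (ties by shorter span), the 5 windows of 1 Mb with the largest difference per direction, the 5 closest pairs and the 3 highest and lowest chromosomes. Members, rules and lists were chosen with earlier results of these data known. No gene or sequence was assigned, because no genome or annotation of hg19 was used here. The input libraries were not analysed here.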

Additional observations from a re-analysis of the deposited data

Results flagged for a closer look

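The names of the FOXA2 peaks carry a number per chromosome that runs past the number of listed peaks. Summed over chromosomes, the highest numbers came to 8927 in SW480 and 19297 in SW620, close to the 8976 and 19333 candidate peaks that the file headers give before filtering. The numbers therefore show where candidates were removed, which no comparison above used: 3720 numbers had no listed peak in SW480 and 6925 in SW620. Per the file headers, 3651 SW480 and 6250 SW620 candidates were removed for lack of enrichment over input. Over the autosomes and X the listed share of the highest number had a median of 69.3% in SW480 and 77.4% in SW620. It was low in both lines on chromosome 16 (40.2% and 38.4%), chromosome 10 (41.7% and 42.0%) and chromosome 8 (29.4% and 42.8%), with SW480 first. It was 20.2% and 46.4% on chromosome 21, and 92.0% and 84.4% on chromosome 13. The ratio of SW620 to SW480 shares was high on chromosomes 10 and 16 but 0.802 on chromosome 8 and 1.01 on chromosome 21. Chromosome 17, with a ratio of 1.52, had 70.2% and 76.3% listed. A relation between removal and these ratios was not tested.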

How the results depend on the processing

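Of the recomputed values, 91 stayed inside the interval of the reported value, 74 moved outside it and 1 changed direction. Of the 91, 18 were identical to the reported value, because the alternative did not alter the list behind them. No value moved on the autosomes alone, and neither share of near peaks moved with 250 bp or with an overlap of 1 bp as the rule. No paired analysis was possible because each group has 1 library, and for the same reason no library could be left out. Different limits of distance change what is counted, and the shares move by construction. With centres within 1 kb, 5.74% of SW480 and 2.34% of SW620 peaks were near the other line. Counting centres inside a region alone, the SW620 peak shares were 11.8% for SW620 H3K4me3, 32.4% for SW620 H3K27ac, 49.4% for SW620 H3K4me2, 12.1% for SW480 H3K4me3, 23.1% for SW480 H3K27ac, 28.9% for SW480 H3K4me2. The SW480 peak shares were then 1.65% for SW620 H3K4me3, 3.02% for SW620 H3K27ac, 5.34% for SW620 H3K4me2, 2.11% for SW480 H3K4me3, 4.40% for SW480 H3K27ac, 5.40% for SW480 H3K4me2. Counting up to 5 kb from the edge, the SW620 peak shares were 20.9% for SW620 H3K4me3, 41.5% for SW620 H3K27ac, 60.2% for SW620 H3K4me2, 21.0% for SW480 H3K4me3, 33.2% for SW480 H3K27ac, 40.9% for SW480 H3K4me2. The SW480 peak shares were then 6.78% for SW620 H3K4me3, 9.45% for SW620 H3K27ac, 16.5% for SW620 H3K4me2, 7.99% for SW480 H3K4me3, 11.8% for SW480 H3K27ac, 15.7% for SW480 H3K4me2. Counting up to 1 kb from the region centre, the SW620 peak shares were 11.4% for SW620 H3K4me3, 28.5% for SW620 H3K27ac, 45.7% for SW620 H3K4me2, 11.2% for SW480 H3K4me3, 19.4% for SW480 H3K27ac, 25.4% for SW480 H3K4me2. The SW480 peak shares were then 1.57% for SW620 H3K4me3, 2.44% for SW620 H3K27ac, 4.94% for SW620 H3K4me2, 2.04% for SW480 H3K4me3, 3.65% for SW480 H3K27ac, 4.95% for SW480 H3K4me2. Clusters held 2.36% of SW620 and 1.23% of SW480 peaks with a limit of 5 kb, 18.2% and 3.46% with 25 kb, and 7.21% and 0.353% with peaks closer than 1 kb joined. 

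With the first-listed SW620 peaks alone, 3.57% of SW480 and 3.48% of SW620 peaks were near the other line, the median distances to the other line were 260 kb from SW480 and 173 kb from SW620 peaks, the median SW620 gap was 199 kb and 5.17% of SW620 peaks were clustered. The SW620 peak shares within 1 kb were then 63.3% and 35.7% for H3K4me2 and 42.6% and 28.8% for H3K27ac of SW620 and SW480, and 13.8% for SW480 H3K4me3. SW620 was nearer in 73.6% of cases for H3K4me2 and 55.3% for H3K27ac, and the ratio on chromosome X was 0.387. The first-listed peaks are not a random part of the SW620 list, so this alternative changes more than its length. With equal numbers of the widest regions, the SW620 peak shares were 25.3% for SW480 H3K27ac, 12.6% for SW480 H3K4me3 and 49.6% for SW620 H3K4me2. SW620 was then nearer to SW620 peaks in 63.6%, 53.2% and 49.7% of cases and to SW480 peaks in 46.1%, 41.2% and 44.4%, for H3K4me2, H3K27ac and H3K4me3. The H3K4me2 share of SW480 peaks is the one that changed direction, and this alternative uses fewer SW620 regions by construction. An alternative chosen after seeing the data left out peaks within 5 Mb of the widest empty stretch. It gave 6.53% clustered SW620 peaks, a median SW620 gap of 91.1 kb, a median over mean gap of 0.569 in SW480, and SW620 peak shares of 56.5% and 34.2% for H3K4me2 and 37.8% and 27.8% for H3K27ac of SW620 and SW480. SW620 H3K4me2 was then nearer in 70.8% of cases for SW620 peaks. At 0.590% of tags in peaks, SW480 sites below the calling threshold would not be listed, so a position in one list alone describes the lists.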
